A study of Homo sapiens with 24 samples.

Results

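HMGCS1, ACAT2 and IDI1 encode 3 enzymes of the mevalonate pathway, and their transcript levels were followed in 24 RNA-seq libraries of the human gastric carcinoma line HGC27. Each enzyme was read under the entry on the opposite strand that collects its reads: ENSG00000261604 for HMGCS1, TCP1 for ACAT2 and IDI2-AS1 for IDI1, 3 of the 61578 entries in each count table. The members were chosen by gene, with earlier results of these data known. All 3 passed the filter on low counts that left 12822 entries for testing.

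The study grew 4 lines of these cells for 3 days in medium labelled LPDS or FBS, with 3 replicates in each of the 8 groups of line and medium. The labels leave the names open, which usually stand for lipoprotein-deficient serum and fetal bovine serum. SG12 and SG21 are labelled as TMEM97 knockouts (TMEM97 is also known as the sigma-2 receptor), SGCTRL as a wild-type line with a control guide, and the fourth line as parental cells, also wild type. Whether each line is a single clone is not stated, so a guide and a clone cannot be told apart, and parental cells carry no guide at all. The labels call the replicates independent but do not name what was grown or collected separately, and p-values here speak only of the spread between these libraries.

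The mevalonate pathway turns acetyl-CoA into isoprenoid units from which cells build cholesterol, ubiquinone and the lipid anchors of prenylated proteins. ACAT2, the cytosolic thiolase, joins acetyl-CoA units into acetoacetyl-CoA. HMGCS1 adds a further acetyl group to give HMG-CoA. IDI1 works further down the pathway and converts isopentenyl diphosphate into dimethylallyl diphosphate. Genes of this pathway are known targets of SREBP-2, a transcription factor that is released from the endoplasmic reticulum when membrane sterols are low, and which acts with NF-Y and Sp1 at many of its promoters.

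The promoters are shown because the 3 genes are described as parts of a pathway and their levels are compared across media labelled LPDS and FBS. The RefSeq table (GRCh38.p14) held 2 start sites for HMGCS1 and 3 for IDI1, all on the minus strand. The one nearest to the gene's start in GENCODE is printed for each, as the 250 bases before the start. HMGCS1 is at chr5:43313413-43313662 and IDI1 at chr10:1049120-1049369, and capitals mark matches to CCAAT (the NF-Y motif, read here as ATTGG on the other strand) and to GGGCGG (the GC box, read as CCGCCC on the other strand).
HMGCS1: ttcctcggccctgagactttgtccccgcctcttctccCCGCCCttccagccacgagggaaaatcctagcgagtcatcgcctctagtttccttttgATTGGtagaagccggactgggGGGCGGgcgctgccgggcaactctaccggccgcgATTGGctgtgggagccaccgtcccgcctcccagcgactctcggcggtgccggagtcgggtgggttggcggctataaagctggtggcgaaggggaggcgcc
IDI1: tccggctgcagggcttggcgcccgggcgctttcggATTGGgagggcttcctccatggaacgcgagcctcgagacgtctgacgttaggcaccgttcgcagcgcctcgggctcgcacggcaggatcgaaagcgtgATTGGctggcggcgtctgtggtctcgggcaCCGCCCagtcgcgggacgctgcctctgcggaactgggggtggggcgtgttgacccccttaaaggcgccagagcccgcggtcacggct

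Both printed windows held 2 CCAAT matches, HMGCS1 with 2 GC boxes and IDI1 with 1. The windows not printed differed: the other of HMGCS1 held 0 CCAAT matches, and those of IDI1 held 0 and 3. In HMGCS1 the CCAAT matches began 155 and 100 bases before the start, and in IDI1 they began 215 and 117 bases before it. Neither window matched TCACNCCAC, the core of a sterol regulatory element, on either strand, which says only that these letters are not in these 250 bases. Among the 35116 RefSeq promoters searched the same way, 32.0% held CCAAT, 42.6% held GGGCGG and 0.883% held TCACNCCAC. The motifs do not overlap in the printed windows, and a match is a description of sequence, not a binding site.

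How the reads reach these entries sets what the values mean. The libraries are stranded, and most counts stand under a gene on the strand opposite to the transcribed one. HMGCS1 (ENSG00000112972, hg38 chr5:43289395-43313512, minus strand) shares 703 exonic bases with ENSG00000261604 (chr5:43287601-43290839, plus strand), which are 15.0% of its exonic bases and hold no coding sequence. ACAT2 (ENSG00000120437, chr6:159760328-159779055, plus strand) shares 397 exonic bases with TCP1 (ENSG00000120438, chr6:159778498-159789749, minus strand), of which 168 are coding. For IDI1 (ENSG00000067064, chr10:1039152-1049170, minus strand) the shared stretch with IDI2-AS1 (ENSG00000232656, chr10:1022666-1044201, plus strand) is 643 bases, 173 of them coding. Each value therefore samples a short part of a gene, at the 3′ end for HMGCS1 and ACAT2. For IDI1 the part is an inner stretch (chr10:1043529-1044171). Levels are compared between groups for a gene and never between the genes. The gene structures are those of GENCODE release 29.

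Entries under the enzymes' own names held little of their reads. HMGCS1 as named had 0 to 7.83 CPM (reads per 1000000 reads on genes) and at most 23 reads in any library, and IDI1 as named had 2.37 to 11.0 CPM. The entry named ACAT2 had 214 to 428 CPM, but its exons lie opposite TCP1, a chaperonin subunit, and opposite SOD2 and SOD2-OT1. IDI2-AS1 also lies opposite 93 exonic bases of IDI2, an isomerase paralog, so reads of IDI1 and IDI2 cannot be told apart fully there. The entry named IDI2 ranged from 23.3 to 63.5 CPM. It lies opposite 928 exonic bases of GTPBP4 and 93 of IDI2-AS1, so this is not the level of IDI2.

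The libraries held 2.4 to 5.54 M reads on genes, and 94.3% to 94.6% of uniquely aligned reads fell on no gene. The libraries split by their share of ambiguous reads, those that fit several genes, among all reads on genes. This share was 2.10% to 2.24% for the 6 SGCTRL libraries and for replicates 2 and 3 of SG21 in LPDS, and 2.58% to 3.15% for the other 16. The knockout lines and SGCTRL thus differ in this share except in those SG21 LPDS libraries, and for SG12 against SGCTRL line and split cannot be told apart. The labelled epithelial origin could not be checked well. EPCAM, KRT19 and the gastric markers TFF2 and GKN1 have no opposite-strand entry, and their near-zero values under their own names say nothing about expression, while CLDN4, also epithelial, had 39.4 CPM under its own name. Of the markers with an opposite-strand entry, epithelial CDH1 averaged 1.09 CPM, mesenchymal CDH2 0.444 CPM and mesenchymal VIM 23667 CPM under VIM-AS1. TMEM97 was readable only at its 3′ end, under IFT20, where every library held 125 to 852 reads, so this reading does not check the knockout.

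HMGCS1 was higher in LPDS than in FBS in every line, and its lowest level in the series was that of SG12 in FBS. In SG12 the 3 libraries held 2425, 2735 and 2705 CPM in LPDS, against 431, 439 and 547 CPM in FBS. In SG21 they held 2498, 2919 and 3051 CPM in LPDS, against 1235, 1145 and 1275 CPM in FBS. SGCTRL had the highest level in each medium, and the media did not overlap in any line. Overlap of libraries is only described, here and below, and the share of all entries whose libraries also lie apart is not given.
SGCTRL libraries held 3847, 3823 and 3718 CPM in LPDS, against 1864, 1875 and 2098 CPM in FBS. Parental libraries held 1894, 2622 and 2385 CPM in LPDS, against 989, 905 and 1005 CPM in FBS. Ordered by mean, SGCTRL in LPDS (3796 ± 68.5 CPM, SD, n = 3) stood apart from SG21 in LPDS (2823 ± 288 CPM). The LPDS libraries of SG21, SG12 and parental cells overlapped from neighbour to neighbour, and so did parental LPDS and SGCTRL FBS. The FBS groups did not overlap one another: SG12 had 473 ± 64.8 CPM, SG21 1218 ± 66.8 CPM, SGCTRL 1946 ± 132 CPM and parental cells 966 ± 53.9 CPM.

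ACAT2 was also higher in LPDS in every line, but its highest levels were in SG21. SG21 libraries held 850.3, 711 and 684 CPM in LPDS, against 416, 359 and 403 CPM in FBS. SG12 libraries held 383, 362 and 374 CPM in LPDS, against 120.5, 125 and 122 CPM in FBS. SG21 in FBS thus overlapped the range of the other lines in LPDS, and SG12 in FBS lay below every other library.
The SGCTRL libraries had 391, 382 and 385 CPM in LPDS, against 227, 197 and 221 CPM in FBS. The parental libraries had 392, 423 and 404 CPM in LPDS, against 262, 279 and 246 CPM in FBS. The 4 groups with means of 373 to 407 CPM (SG12, SGCTRL and parental cells in LPDS, and SG21 in FBS) overlapped from neighbour to neighbour. SG21 in LPDS (748 ± 89.2 CPM) stood above them and the FBS groups of parental cells (262 ± 16.2 CPM), SGCTRL (215 ± 15.8 CPM) and SG12 (123 ± 2.55 CPM) stood below, each apart from the next.

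IDI1 was higher in LPDS in SG12, SGCTRL and parental cells, and varied among the SG21 libraries in LPDS. SG12 libraries held 627, 586 and 675 CPM in LPDS, against 115, 171 and 169 CPM in FBS, the highest and the lowest group of the series. SG21 libraries held 483, 243 and 240.4 CPM in LPDS, against 270.3, 266 and 284 CPM in FBS. Replicate 1 of SG21 in LPDS lay above its FBS libraries and replicates 2 and 3 lay below them.
In SGCTRL the libraries had 396, 409 and 450.1 CPM in LPDS, against 231, 235 and 255 CPM in FBS. In parental cells they had 435, 423 and 535 CPM in LPDS, against 265, 254 and 214 CPM in FBS. The media did not overlap in SGCTRL or in parental cells. SG12 in LPDS (629 ± 44.8 CPM) stood above parental cells (465 ± 61.3 CPM) in LPDS without overlap. From there parental cells, SGCTRL (418 ± 28.3 CPM), SG21 (322 ± 139 CPM) in LPDS and SG21 in FBS (274 ± 9.24 CPM) each overlapped the next. Next by mean came the FBS groups of parental cells (244 ± 27.0 CPM) and SGCTRL (240.3 ± 12.8 CPM), which overlapped. Replicates 2 and 3 of SG21 in LPDS (243 and 240.4 CPM) lay within the ranges of both these FBS groups. SG12 in FBS (152 ± 32.1 CPM) came last and stood apart.

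**Figure D1:**
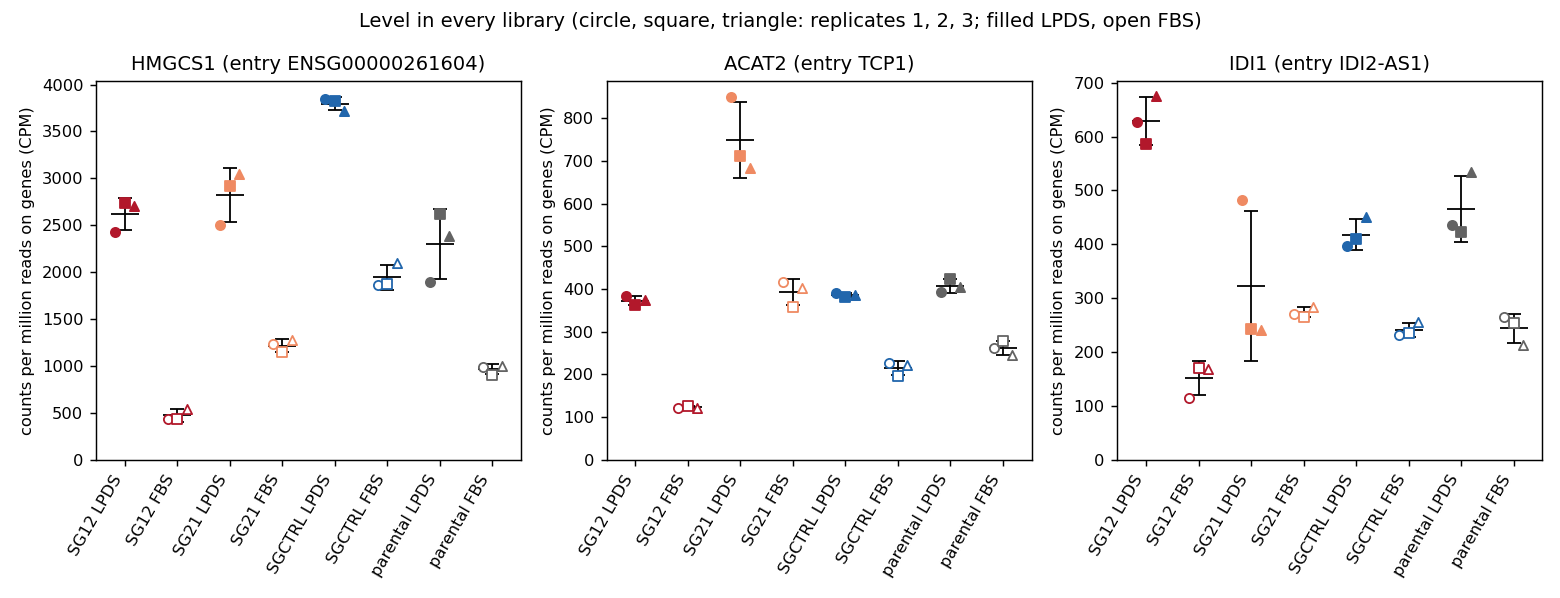
CPM of HMGCS1, ACAT2 and IDI1 in each of the 24 libraries, by line and medium; bars are the mean ± SD of 3 libraries, filled points are LPDS and open points FBS, and each panel has its own axis from 0. SG12 in FBS is the lowest group for all 3 genes, SGCTRL in LPDS is highest for HMGCS1, SG21 in LPDS for ACAT2 and SG12 in LPDS for IDI1, and the IDI1 points of SG21 in LPDS lie at 483, 243 and 240.4 CPM.

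CPM are shares of all reads on genes, so fewer cells that carry a transcript and less of it per cell cannot be told apart. Changes were tested with edgeR's quasi-likelihood test on the counts, and adjusted p-values are Benjamini-Hochberg values over all 12822 entries. Fold changes are log2 with an approximate standard error.

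The response to LPDS was largest in SG12. All 3 enzymes passed there, where 22.5% of entries tested passed in either direction and 11.6% passed and were higher. HMGCS1 rose by 2.47 ± 0.11 (SE; edgeR adjusted p = 2.98e-19), a 5.55-fold ratio of mean CPM. IDI1 rose by 2.05 ± 0.18 (edgeR adjusted p = 3.37e-11) and ACAT2 by 1.60 ± 0.11 (edgeR adjusted p = 4.76e-14), which are ratios of 4.14 and 3.04. The median over all entries was 0.02.

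In SG21, HMGCS1 and ACAT2 passed, against 3.76% of entries tested (1.81% higher). HMGCS1 rose by 1.18 ± 0.10 (edgeR adjusted p = 3.67e-10) and ACAT2 by 0.90 ± 0.10 (edgeR adjusted p = 1.63e-07). IDI1 was 0.21 ± 0.17 higher and did not pass (edgeR adjusted p = 0.584). With replicate 1 of SG21 in LPDS left out the IDI1 difference was -0.24, and with that library alone it was 0.82. The spread of IDI1 within SG21 LPDS was known when it was chosen, so values of IDI1 that divide those 3 libraries are given as descriptions, with no test.

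In the wild-type lines 2.25% of entries passed in SGCTRL (1.29% higher) and 4.67% in parental cells (2.18% higher), and all 3 enzymes rose in both. In SGCTRL the rises were 0.97 ± 0.10 for HMGCS1, 0.85 ± 0.10 for ACAT2 and 0.81 ± 0.17 for IDI1, with edgeR adjusted p of 4.04e-08, 1.05e-06 and 0.00549 in that order. In parental cells they were 1.26 ± 0.10, 0.64 ± 0.10 and 0.93 ± 0.17, with edgeR adjusted p of 6.87e-11, 0.000144 and 0.000831. The IDI1 rise in SGCTRL had the same size under edgeR's robust shrinkage but no longer passed (adjusted p = 0.0657).

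**Figure D2:**
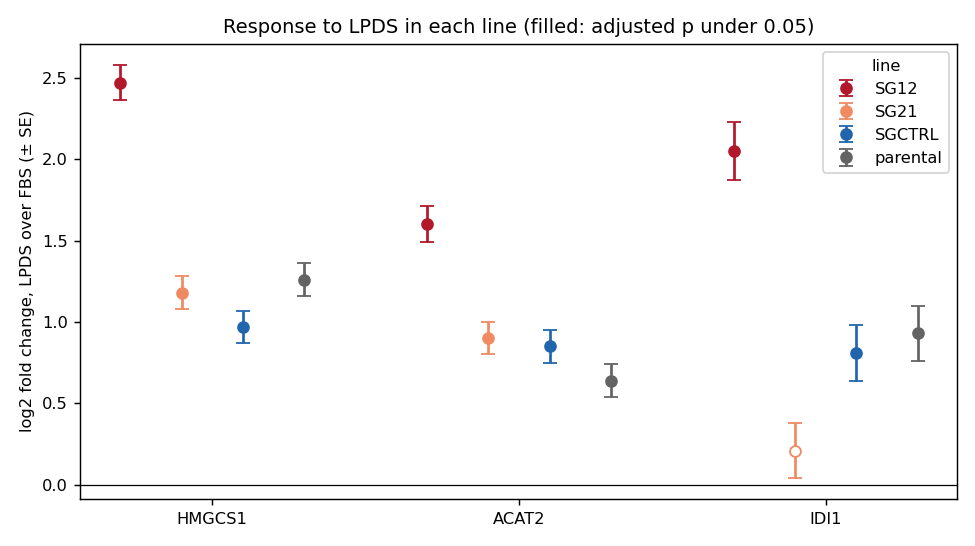
Log2 fold change of LPDS over FBS for the 3 enzymes in each line, with approximate SE; filled points have an adjusted p under 0.05. SG12 has the largest response of each enzyme (2.47, 1.60 and 2.05), and IDI1 in SG21 (0.21) is the only open point.

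The difference between responses was tested directly. The SG12 response exceeded that of SGCTRL for all 3 enzymes, by 1.50 ± 0.15 for HMGCS1, 0.75 ± 0.15 for ACAT2 and 1.24 ± 0.24 for IDI1 (edgeR adjusted p of 3.37e-09, 0.000711 and 0.000583), where 10.4% of entries passed (5.09% with a larger response in SG12). It also exceeded that of SG21, the other knockout line, by 1.29 ± 0.15, 0.70 ± 0.15 and 1.84 ± 0.24 (edgeR adjusted p of 8.29e-08, 0.00108 and 1.55e-06), where 12.9% passed (6.56% with a larger response in SG12). Against parental cells the SG12 excess was 1.21, 0.96 and 1.12, and all 3 passed again, against 8.03% of entries (3.24% with a larger response in SG12). With SG21 LPDS replicate 1 alone, assumed to vary like the other groups, the ACAT2 difference between SG12 and SG21 was 0.49. In a fit with a term for the library split it was also 0.49 and did not pass (edgeR adjusted p = 0.0619). The IDI1 difference was 2.28 without SG21 LPDS replicate 1 and 1.23 with the split term. Only SG21 LPDS can estimate that term, and these 2 IDI1 values are descriptions.

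No enzyme passed for the SG21 response against that of SGCTRL. The differences were 0.20 ± 0.14 for HMGCS1, 0.05 ± 0.15 for ACAT2 and -0.60 ± 0.24 for IDI1 (edgeR adjusted p of 0.759, 0.959 and 0.468). None of the 12822 entries passed in this comparison (0.0%) in edgeR, 1069 had an unadjusted p under 0.05, DESeq2 called 32 and edgeR with robust shrinkage called 6. The IDI1 value rested on 1 library: it was -1.05 without SG21 LPDS replicate 1 and 0.01 with that library alone. The SGCTRL response differed from that of parental cells by -0.29, 0.21 and -0.12 for HMGCS1, ACAT2 and IDI1, none of which passed, and 0.0546% of all entries did.

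Within FBS, SG12 had less of each enzyme than SGCTRL. HMGCS1 fell by 2.02 on the log2 scale (SE 0.11; edgeR adjusted p = 4.35e-17), ACAT2 by 0.79 (SE 0.11; edgeR adjusted p = 5.57e-07) and IDI1 by 0.64 (SE 0.17; edgeR adjusted p = 0.00558), where 25.2% of entries passed (13.1% lower). Against parental cells the SG12 differences were -0.99, -1.06 and -0.65, and all 3 passed, beside 26.5% of entries (13.7% lower). The IDI1 difference from SGCTRL did not pass when SG12 FBS replicate 1, the lowest library at 115 CPM, was left out (-0.45; edgeR adjusted p = 0.0841). With a term for the library split it was -1.69. Only SG21 LPDS can estimate that term, so this value rests on the IDI1 gap between the SG21 LPDS libraries.

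SG21 in FBS did not share that pattern. ACAT2 was 0.86 ± 0.10 higher than in SGCTRL (edgeR adjusted p = 1.85e-07), HMGCS1 was lower by 0.68 on the log2 scale (-0.68 ± 0.10; edgeR adjusted p = 9.16e-06) and IDI1 differed by 0.18 ± 0.17 (edgeR adjusted p = 0.556), beside 14.1% of entries. With a term for the library split neither call was kept: ACAT2 was 0.53 (edgeR adjusted p = 0.135) and HMGCS1 -0.48 (edgeR adjusted p = 0.226). Only SG21 LPDS can estimate that term, and the SE grew from 0.10 to 0.17 for both genes. Both values thus rest on the gap between the SG21 LPDS libraries. Against parental cells ACAT2 was again higher (0.60; edgeR adjusted p = 5.19e-05), but HMGCS1 was higher too, by 0.35 ± 0.10 (edgeR adjusted p = 0.0111), beside 24.1% of entries. SG12 lay below SG21 in FBS by 1.34 for HMGCS1 (-1.34 ± 0.11), 1.65 for ACAT2 (-1.65 ± 0.11) and 0.82 for IDI1 (-0.82 ± 0.17), all of which passed (edgeR adjusted p of 1.37e-12, 1.35e-14 and 0.000398), beside 27.5% of entries (14.4% lower).

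In LPDS each enzyme had a pattern of its own. In SG12 against SGCTRL, HMGCS1 fell by 0.52 on the log2 scale (edgeR adjusted p = 0.000435), ACAT2 differed by -0.04 ± 0.10 (edgeR adjusted p = 0.874) and IDI1 rose by 0.60 ± 0.17 (edgeR adjusted p = 0.0149), beside 10.9% of entries. The IDI1 call was lost with robust shrinkage (adjusted p = 0.0875), without SG12 LPDS replicate 3 (0.55; adjusted p = 0.066) and with parental cells as control (0.47; adjusted p = 0.0693). SG12 and SGCTRL lie wholly apart on the library split, and with a term for it the HMGCS1 call was lost (-0.32, edgeR adjusted p = 0.455). The IDI1 sign turned (-0.45). Each value with the term rests on that gene's gap between the SG21 LPDS libraries, which alone can estimate it. Against parental cells HMGCS1 in SG12 was 0.22 higher rather than lower and did not pass (edgeR adjusted p = 0.172), and ACAT2 differed by -0.09 (edgeR adjusted p = 0.645), so none of the 3 enzymes passed there, beside 9.68% of entries.

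For SG21 against SGCTRL in LPDS, HMGCS1 fell by 0.48 on the log2 scale (edgeR adjusted p = 0.00124), ACAT2 rose by 0.91 ± 0.10 (edgeR adjusted p = 5.17e-08) and IDI1 differed by -0.42 ± 0.17 (edgeR adjusted p = 0.118), beside 10.7% of entries. Against parental cells ACAT2 rose by 0.86 (edgeR adjusted p = 1.74e-07) and HMGCS1 was 0.27 higher and did not pass (edgeR adjusted p = 0.0849). IDI1 was lower there, at -0.55 (edgeR adjusted p = 0.0297), and 11.3% of entries passed. Its libraries overlapped: SG21 LPDS replicate 1, at 483 CPM, lay within the parental LPDS range of 423 to 535 CPM. Replicates 2 and 3 (243 and 240.4 CPM) lay below that range. The SG12 and SG21 levels in LPDS differed by -0.05 ± 0.10 for HMGCS1 (edgeR adjusted p = 0.817), by -0.95 ± 0.10 for ACAT2 (edgeR adjusted p = 7.86e-09) and by 1.02 ± 0.17 for IDI1 (edgeR adjusted p = 2.53e-05), beside 18.3% of entries. With SG21 LPDS replicate 1 alone that IDI1 difference was 0.41.

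The wild-type lines differed in HMGCS1. SGCTRL had 1.03 ± 0.10 more than parental cells in FBS (edgeR adjusted p = 1.35e-08) and 0.75 ± 0.10 more in LPDS (edgeR adjusted p = 8.63e-05), where 18.2% and 0.842% of entries passed. These lines too lie wholly on opposite sides of the library split, and with a term for it the FBS value was 0.83 (edgeR adjusted p = 0.0169) while the LPDS value was 0.54 and no longer passed (edgeR adjusted p = 0.338), with 108 entries called in LPDS becoming 0. IDI1 took the opposite sign with that term, at 1.04 in FBS and 0.92 in LPDS. Only SG21 LPDS can estimate the term, so both values rest on the IDI1 gap between its libraries and are descriptions. The HMGCS1 values with the term and the loss of calls over all entries rest on the same libraries. ACAT2 differed by -0.27 ± 0.10 in FBS (edgeR adjusted p = 0.0719) and -0.05 ± 0.10 in LPDS (edgeR adjusted p = 0.907). IDI1 differed by -0.01 ± 0.17 in FBS (edgeR adjusted p = 0.986) and -0.13 ± 0.17 in LPDS (edgeR adjusted p = 0.834). The ACAT2 difference in FBS passed under DESeq2's Wald test (-0.31; adjusted p = 0.028). So the sign of the HMGCS1 value in a knockout line depended on the control line, except for SG12 in FBS, which was lower than both.

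**Figure D3:**
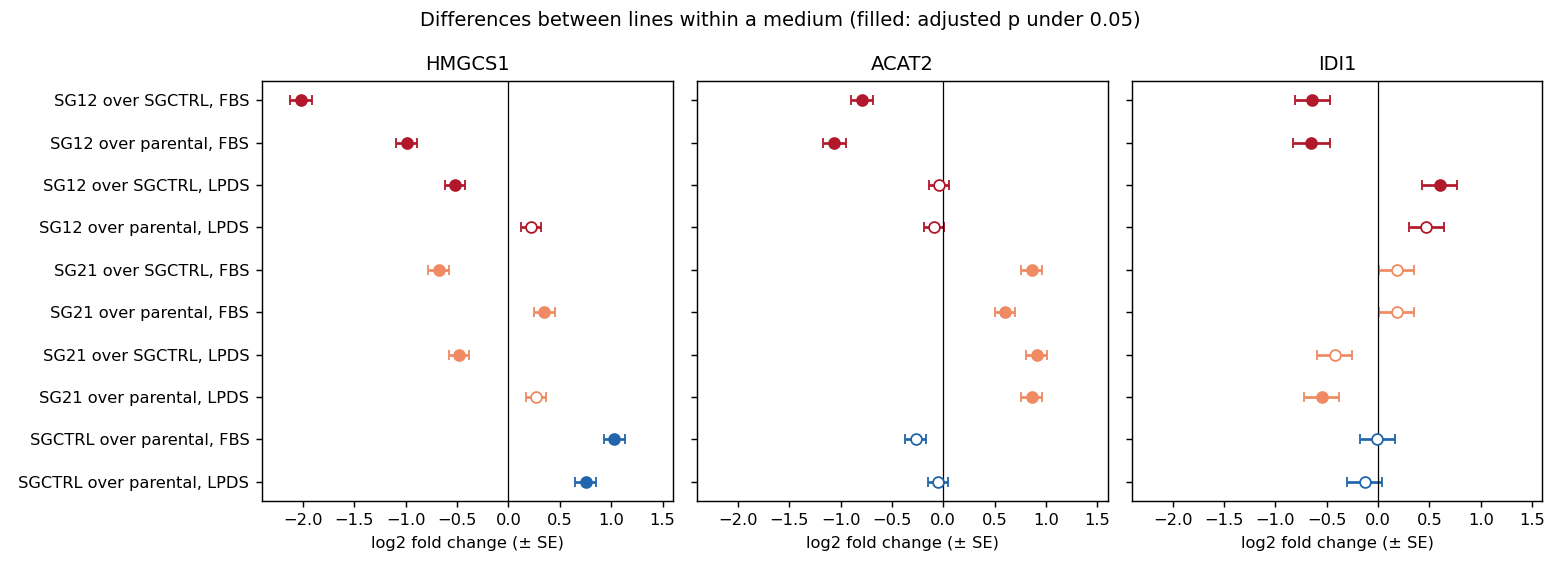
Log2 fold change between lines within a medium for each enzyme, with approximate SE; filled points have an adjusted p under 0.05, and all rows with SGCTRL share its libraries, as do all rows with parental cells. For HMGCS1 the SG21 points lie below 0 against SGCTRL (-0.68 and -0.48) and above 0 against parental cells (0.35 and 0.27), while ACAT2 in SG21 lies above 0 in all 4 rows.

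ACAT2 was the enzyme whose level separated SG21 from the other lines, and the region around it was therefore looked at. The entry named ACAT2, which reads the other side of the locus, was also higher in SG21 than in SGCTRL, by 0.49 ± 0.12 in FBS (edgeR adjusted p = 0.00326) and 0.56 ± 0.12 in LPDS (edgeR adjusted p = 0.00122). It had 339.9 to 428 CPM in SG21 FBS and 319 to 414 CPM in SG21 LPDS, against 239.6 to 295 CPM in SGCTRL FBS and 216 to 259 CPM in SGCTRL LPDS. Against parental cells it did not pass, at 0.24 in FBS (edgeR adjusted p = 0.135) and 0.29 in LPDS (edgeR adjusted p = 0.108). Unlike the ACAT2 reading under TCP1, it did not pass for LPDS against FBS in any line, with values of 0.28, -0.13, -0.19 and -0.18 in SG12, SG21, SGCTRL and parental cells. Among 20 other tested entries within 5 Mb, none passed for SG21 against SGCTRL in FBS or in LPDS. Of all entries 14.1% and 10.7% passed there. The medians of the 20 were 0.19 and 0.12, beside -0.01 and 0.01 for all entries. Against parental cells 1 of the 20 was higher in FBS and none passed in LPDS, beside 24.1% and 11.3% of all entries. Counts over so few entries cannot decide whether the ACAT2 difference is regional, which was not tested.

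The IDI1 spread in SG21 LPDS was large for an entry of its level. It was known when IDI1 was chosen, so its ranks below are descriptions and no evidence. Replicate 1 held 1314 reads (95% exact Poisson interval 457 to 509 CPM), replicate 2 held 863 (227 to 259.7 CPM) and replicate 3 held 614 (222 to 260.2 CPM), intervals that cover counting error only. The SD of log2 CPM was 0.58, at the 98.3rd percentile of 1653 entries with a mean of at least 100 CPM, while HMGCS1 (0.15) and ACAT2 (0.17) were at the 51.2nd and 56.6th. Replicate 1 lay 1.00 above the mean of replicates 2 and 3 on the log2 scale for IDI1, a gap that 16 of these entries reached, IDI1 included, 0.29 above it for ACAT2 and 0.26 below it for HMGCS1 (-0.26).

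The library split runs through the same group. SG21 LPDS replicate 1 is on the side with more ambiguous reads and replicates 2 and 3 are on the side of SGCTRL. On that side, SG21 replicates 2 and 3 against the 3 SGCTRL libraries in LPDS gave -0.86 ± 0.13 for IDI1, -0.42 ± 0.10 for HMGCS1 (edgeR adjusted p = 0.00728) and 0.79 ± 0.10 for ACAT2 (edgeR adjusted p = 5.03e-07). A fit with a term for the split, which only SG21 LPDS can estimate, gave 0.82 for the IDI1 response in SG21 and turned the IDI1 difference of SG21 from SGCTRL in FBS to -0.87, both resting on the gap between those libraries. That fit left the sign and the call of each LPDS response in SG12, SGCTRL and parental cells as they were, since those lines lie on 1 side each. HMGCS1 had a median of 2985 CPM over the 8 libraries with few ambiguous reads and 1255 CPM over the other 16, ACAT2 383 and 368 CPM, and IDI1 249 and 277 CPM. The part of the split in the differences between lines was not tested beyond these values.

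**Figure D4:**
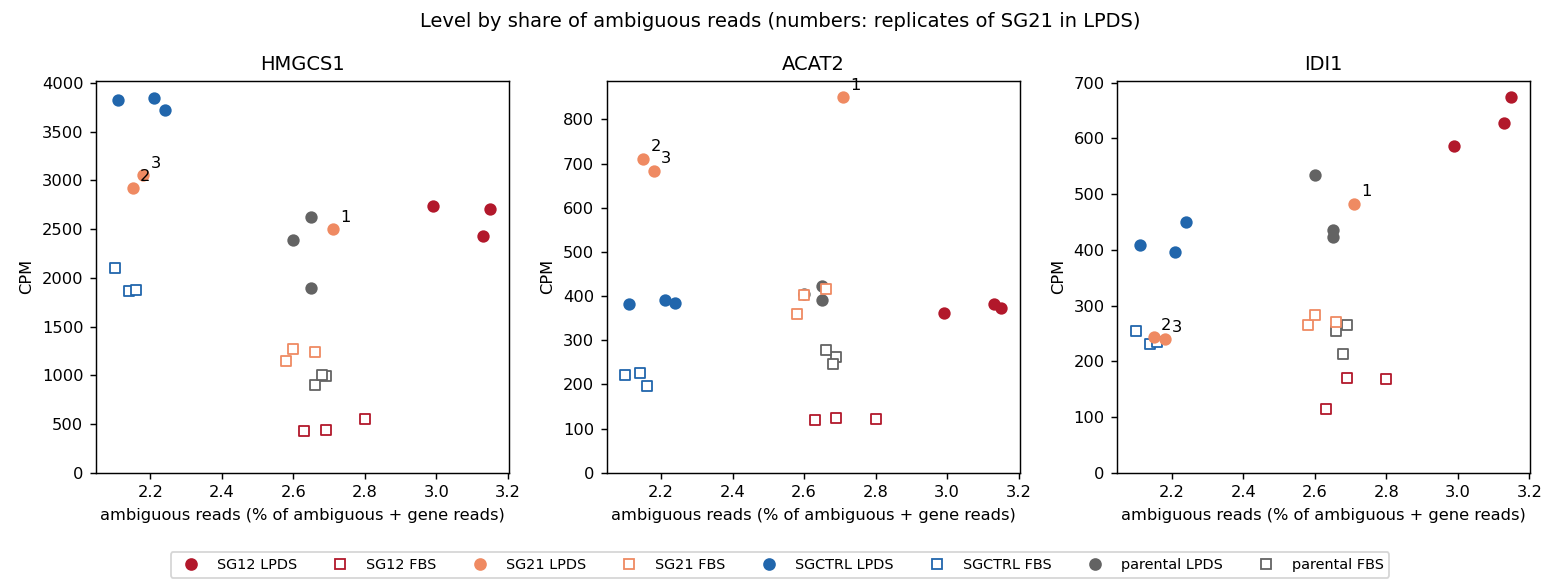
CPM of each enzyme against the share of ambiguous reads in each library, with numbers on the 3 SG21 LPDS libraries. Replicates 2 and 3 of SG21 in LPDS lie with the SGCTRL libraries, at 2.10% to 2.24%, and for IDI1 they lie at 243 and 240.4 CPM while replicate 1, on the other side, lies at 483 CPM.

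Other genes of cholesterol synthesis, acetyl-CoA supply, sterol control and uptake were read from a list of 43 genes. Of these, 11 had an entry that reads them from the opposite strand (12 entries), and 8 of those genes had a mean above 6.01 CPM, a floor set at percentile 90 among 13074 coding genes that lack an opposite-strand gene. In LPDS against FBS, 4 of the 8 rose in SG12, 3 in SG21, 2 in SGCTRL and 5 in parental cells, and none fell, where 11.6%, 1.81%, 1.29% and 2.18% of all entries passed and were higher. Their medians were 0.57, 0.40, 0.33 and 0.46 in that order, beside medians of all entries within 0.02 of 0. The counts moved with the fit and with single libraries. In parental cells 2 rose with a spread from the compared groups alone, and 2 also without parental LPDS replicate 3 or without parental FBS replicate 2. In SG21 5 rose without SG21 LPDS replicate 1.

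LSS, lanosterol synthase, and ACLY, which makes cytosolic acetyl-CoA, rose in all 4 lines. LSS rose by 2.07 in SG12, 1.08 in SG21, 0.77 in SGCTRL and 1.03 in parental cells. Its SG12 libraries ranged from 664 to 788 CPM in LPDS, against 168 to 181 CPM in FBS. ACLY rose by 1.05, 0.68, 0.56 and 0.52 in the same order of lines. The FDFT1 values (squalene synthase, the first enzyme committed to sterols) were 0.21, -0.24, -0.22 and -0.19, and none passed, at a mean of only 28.7 CPM.
SREBF2, which encodes SREBP-2, rose by 0.77 in SG12, 0.38 in SG21 and 0.41 in parental cells, with a value of 0.05 in SGCTRL that did not pass. SREBF1 rose in SG12 (1.37) and parental cells (0.83), and NPC1, the lysosomal cholesterol transporter, rose in parental cells (0.63). ACAT1, the mitochondrial thiolase, and PDSS1, which makes the ubiquinone side chain, passed in no line, with values between -0.19 and 0.37.

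In SG12 against SGCTRL in FBS, 3 of the 8 genes fell and none rose, with a median of -0.37 beside -0.03 for all entries, of which 13.1% passed and were lower. These were LSS (-1.07), SREBF2 (-0.78) and ACLY (-0.66). Against parental cells 4 fell, namely ACLY (-0.45), LSS (-0.39), ACAT1 (-0.32) and SREBF2 (-0.31), and NPC1 rose (0.75), where 13.7% of all entries passed and were lower. In SG21 against SGCTRL in FBS, NPC1 (-0.80) fell and PDSS1 (0.68) rose, beside 14.1% of entries. The count of calls was 1 without SG21 FBS replicate 1 and 1 without SGCTRL FBS replicate 3. The SG12 response exceeded that of SGCTRL for LSS (1.31), SREBF2 (0.72) and ACLY (0.49), 3 of the 8, with a median of 0.46 beside 0.02 for all entries, of which 5.09% passed with a larger response in SG12. Against parental cells the excess passed for LSS (1.05) and ACLY (0.53), and SREBF2 was 0.35 without passing (edgeR adjusted p = 0.163). Against SG21 it passed for LSS (0.99) and SREBF1 (0.86), and SREBF2 was 0.38 (edgeR adjusted p = 0.0994) and ACLY 0.37 (edgeR adjusted p = 0.0575).

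Entries that lie opposite a list gene and also opposite other genes were added after the data were seen. FDPS, farnesyl diphosphate synthase, makes up 63.5% of the opposite overlap of RUSC1-AS1, which averaged 3846 CPM and rose by 1.93 in SG12, 0.95 in SG21, 1.05 in SGCTRL and 0.83 in parental cells under LPDS. CYP51A1, lanosterol demethylase, makes up 7.3% of that of CYP51A1-AS1, whose values were 0.79, 1.02, 1.10 and 0.60 in the same order of lines, and none passed. STARD4, a sterol transfer protein, makes up 12.3% of that of STARD4-AS1, whose values lay between -0.01 and 0.20, and ACAT1 makes up 26.5% of that of ENSG00000255467, whose values lay between -0.30 and 0.23. Neither passed in any line.

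The entries most like each enzyme were found by Pearson's r of log2(CPM + 0.5) over the 24 libraries, among 8036 entries with a mean of at least 5 CPM. The libraries share lines, media and depth, so the r values are descriptions. Among the 5 highest for HMGCS1 were ENSG00000267598, which reads IER2 (0.941), SNAI3, which reads SNAI3-AS1 (0.940), and ENSG00000223901, which reads LSS (0.936).
For ACAT2 the 5 highest began with RUSC1-AS1 (0.932), SCO2, which reads ENSG00000272821 (0.930), and ENSG00000290578 (0.925). They ended with MVK, which reads MMAB (0.924), and ENSG00000274630, which reads ACLY (0.907). Likeness was lower for IDI1, whose 5 highest began with MAST2 (0.876) and CCNL1, which reads a Y_RNA gene (0.874). They ended with RETREG1-AS1, which reads RETREG1 (0.863), ENSG00000290057 (0.857) and RNF139-DT (0.851). None of these 5 IDI1 neighbours reads a gene of the pathway list. Between the enzymes r was 0.75 for HMGCS1 and ACAT2, 0.75 for HMGCS1 and IDI1 and 0.62 for ACAT2 and IDI1.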

How the data were processed

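RNA was prepared with a ribosomal-depletion kit that keeps strand, per the labels' protocols, and the submitters' processing notes name bcl2fastq, STAR and the build hg38. The authors deposited raw counts, 1 table of 61578 entries per library; what counted the reads, with which annotation and strand setting, is not given in the sources used here. Reads on no gene (94.3% to 94.6% of uniquely aligned reads) and ambiguous reads stayed out of library sizes.

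The main test on these counts was that of edgeR 4.0.16 in R 4.3.3 (quasi-likelihood, TMM, filterByExpr, all 24 libraries, a mean per group), with Benjamini-Hochberg adjustment within each comparison and 0.05 as threshold; standard errors are the fold change over the square root of F. DESeq2 1.42.0 was an alternative. Entries were matched to GENCODE 29 (56771 of 61578), and a gene is read under an opposite-strand entry that overlaps its exons by at least 50 bases with at least 80% of such overlap. The members and lists were chosen with earlier results of these data known. Named are the members, the list genes that could be read and entries among the 5 most like each member. A few genes of the list and entries that read them are not reported here, and list counts leave them out. ACAT2 had no promoter in the table used.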

Additional observations from a re-analysis of the deposited data

Results flagged for a closer look

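The response to LPDS, taken as the log2 difference between LPDS and FBS, differed between lines for all 3 enzymes, by the test of the difference itself in edgeR (Benjamini-Hochberg adjusted). SG12 exceeded SGCTRL by 1.50 for HMGCS1, 0.75 for ACAT2 and 1.24 for IDI1. SG12 exceeded SG21, which is labelled with the same genotype, by 1.29 for HMGCS1, 0.70 for ACAT2 and 1.84 for IDI1. That IDI1 excess was 2.28 without SG21 LPDS replicate 1 and 1.23 with the library split term. For HMGCS1, SG12 had 473 ± 64.8 CPM in FBS, against 1946 ± 132 CPM in SGCTRL (SD, n = 3), while in LPDS it had 2622 ± 171 CPM, against 3796 ± 68.5 CPM in SGCTRL. Against SGCTRL its larger response thus went with a lower FBS level and not with a higher LPDS level. With the split term, which only SG21 LPDS can estimate, the LPDS difference from SGCTRL lost its call (-0.32). Against parental cells HMGCS1 in SG12 was -0.99 in FBS and 0.22 higher in LPDS, which did not pass (edgeR adjusted p = 0.172). For IDI1 the means differed in both media: SG12 had 152 ± 32.1 CPM in FBS, against 240.3 ± 12.8 CPM in SGCTRL, and 629 ± 44.8 CPM in LPDS, against 418 ± 28.3 CPM in SGCTRL. Neither IDI1 difference was stable. The LPDS one lost its call without SG12 LPDS replicate 3 (0.55), under robust shrinkage (0.60) and with parental cells as control (0.47). It was -0.45 with the split term, a value that rests on the IDI1 gap between the SG21 LPDS libraries. The FBS one lost its call without SG12 FBS replicate 1 (-0.45).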

How the results depend on the processing

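The LPDS responses of SG12 and parental cells kept their direction and call for all 3 enzymes under every alternative run, as did the differences of response between SG12 and SGCTRL. With parental cells as control, the differences from SGCTRL became 0.35 (SG21, FBS), 0.22 (SG12, LPDS) and 0.27 (SG21, LPDS) for HMGCS1, with -0.08 for the SG21 response, and for IDI1 0.47 (SG12, LPDS) and -0.55 (SG21, LPDS). With the split term, HMGCS1 gave -0.48 (SG21 against SGCTRL, FBS), -0.32 (SG12 against SGCTRL, LPDS), 0.54 (SGCTRL against parental, LPDS), all 3 calls lost, and 0.09 (SG12 against SG21, LPDS). ACAT2 gave 0.53 (SG21 against SGCTRL, FBS; call lost), 0.07 and 0.28 (SGCTRL against parental, FBS and LPDS) and 0.49 (response, SG12 minus SG21; call lost). IDI1 gave 0.82 (LPDS response, SG21), -0.87 and -0.85 (SG21 against SGCTRL, FBS and LPDS) and -0.45 (SG12 against SGCTRL, LPDS). It also gave 1.04 and 0.92 (SGCTRL against parental, FBS and LPDS), 0.40 (SG12 against SG21, LPDS) and 0.02 (response, SG21 minus SGCTRL). Only SG21 LPDS can estimate the split term, so these values of all 3 enzymes rest on the gap between its libraries. With SG21 LPDS replicate 1 alone, values were 0.10 for HMGCS1 (SG12 against SG21, LPDS), 0.49 for ACAT2 (response, SG12 minus SG21), and for IDI1 0.82, 0.20, 0.41 and 0.01 (SG21 response, SG21 against SGCTRL and SG12 against SG21 in LPDS, SG21 minus SGCTRL response). With no count filter, HMGCS1 gave 0.01 (SG12 against SG21, LPDS), ACAT2 -0.01 (response, SG21 minus SGCTRL) and IDI1 -0.48 (SG21 against SGCTRL, LPDS) and 0.03 (SGCTRL against parental, FBS). Robust shrinkage gave 0.81 and 0.60 for IDI1 (SGCTRL response; SG12 against SGCTRL, LPDS), neither past the threshold. ACAT2 in SGCTRL against parental cells in FBS passed with DESeq2 size factors (-0.31), all uniquely aligned reads as library size (-0.30) and the Wald test (-0.31). The cause of these shifts was not tested.

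Leaving out 1 library in turn, calls or signs moved in the ranges -0.10 to 0.02 (HMGCS1, SG12 against SG21, LPDS), -0.04 to 0.00, -0.34 to -0.23 and -0.08 to 0.14 (ACAT2: SG12 against SGCTRL in LPDS, SGCTRL against parental in FBS, SG21 minus SGCTRL response), and for IDI1 -0.24 to 0.39 (SG21 response), -0.71 to -0.45 and 0.55 to 0.66 (SG12 against SGCTRL, FBS and LPDS), -0.86 to -0.23 (SG21 against SGCTRL, LPDS), -0.10 to 0.03 (SGCTRL against parental, FBS) and -1.05 to -0.40 (SG21 minus SGCTRL response).

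Same-numbered libraries did not deviate together (r of -0.13 to 0.18), and the replicate block changed no call for an enzyme, for example 2.47 for HMGCS1 in SG12. Entries called for SG21 against SGCTRL in FBS were 1810, against 150 with the split term and 3088 with parental cells as control. The split term is estimated from SG21 LPDS alone for every entry. The SG21 response called 482 entries, against 70 with replicate 1 alone and 846 without it.

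Counts for the 8 other pathway genes show only how calls moved, since the calls over all entries moved too. With parental cells as control, 5 passed for SG12 in FBS (1 higher, 4 lower), beside 26.5% of all entries. For SG21 in FBS 4 passed, all higher, beside 24.1% of all entries. In LPDS 1 passed for SG12 (higher) and 6 for SG21 (4 higher, 2 lower), beside 9.68% and 11.3% of all entries. With the split term 1 passed for SG21 against SGCTRL in FBS, where calls over all entries went from 1810 to 150. For SG12 against SGCTRL in LPDS 1 passed, where calls over all entries went from 1402 to 181. For SG21 against SGCTRL and for SG12 against SG21 in LPDS 2 passed each. For SGCTRL against parental cells 0 passed in each medium, where all calls went from 2335 to 152 in FBS and from 108 to 0 in LPDS. With a spread from the compared groups alone 2 passed for LPDS in parental cells and 1 for SG12 against SGCTRL in LPDS. With no count filter 2 passed for SG12 against SG21 in LPDS and 1 for the difference of their responses, which also gave 1 with all uniquely aligned reads as library size. With SG21 LPDS replicate 1 alone 2 passed for SG12 against SG21 and 0 for SG21 against SGCTRL in LPDS. Leaving out 1 library, the counts were 2 to 5 for LPDS in SG21 and in parental cells, 1 to 2 for SG21 against SGCTRL in each medium and for the SG12 minus SG21 response, and 0 for SGCTRL against parental cells in LPDS.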
